A study of Arabidopsis thaliana with 2 samples.

Results

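The lipase-like immune regulator gene PAD4 (AT3G52430), the membrane protein gene NDR1 (AT3G20600) and the pipecolate genes ALD1 (AT2G13810) and FMO1 (AT1G19250) were taken by locus identifier from the authors' table of transcripts with fewer reads in WRKY75 RNAi leaves of *Arabidopsis thaliana*. They are 4 of the 930 loci listed there as lower and 4 of the 2159 loci listed in either direction. Every transcript of that table lies at least 2-fold below wild type, so the direction of all 4 genes was fixed by how they were chosen, and their ratios are given as a description without a test. The measurement was polyadenylated RNA sequencing of leaves 3 and 4 of plants aged 28 days, with 1 library of wild-type Col-0 and 1 library of WRKY75 RNAi plants in the Col-0 ecotype, in which RNA interference targets the transcription factor gene WRKY75. The sources used here do not state which promoter drives the RNAi construct, how many transgenic lines were used or how many plants a library pools.

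The deposited values rest on totals of 41328980 reads for wild type and 38042482 reads for WRKY75 RNAi. With 1 library per genotype there is no spread between plants, and every interval below is an exact 95% interval that covers counting error only. In whole leaves, fewer cells of a type and less RNA per cell cannot be told apart. The targeted gene WRKY75 (AT5G13080) was covered by 1699 wild-type and 476 RNAi reads, a log2 ratio of -1.72 (interval -1.87 to -1.57). Of 5 leaf photosynthesis, 4 root and 4 flower marker genes, 0 were listed in either table, so the tables hold no marker level against which to check the tissue.

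The 4 genes stand at different steps of plant immunity. PAD4 pairs with EDS1 and works with helper receptors of the ADR1 class downstream of TIR-type intracellular receptors, and it promotes salicylic acid accumulation. NDR1 is anchored at the plasma membrane, binds RIN4, and is needed by coiled-coil receptors such as RPS2 and RPM1. ALD1 is an aminotransferase that starts the conversion of lysine to pipecolic acid, which SARD4 completes, and FMO1 is a flavin monooxygenase that turns pipecolic acid into N-hydroxypipecolic acid, a signal of systemic acquired resistance. WRKY proteins bind the W-box, whose core is TTGAC, and the calmodulin-binding family members CBP60g and SARD1, known activators of ALD1 and FMO1, bind sites with the core GAAATTT.

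The genes differ in structure, which bears on how their levels can be set side by side. In the RefSeq annotation of TAIR10.1, PAD4 lies on chromosome 3 from 19431095 to 19434450 on the plus strand, with 2 exons and a spliced transcript of 2255 bases. NDR1, on chromosome 3 from 7194771 to 7195769 on the plus strand, has no intron and a transcript of 999 bases. ALD1, on chromosome 2 from 5768417 to 5772266 on the plus strand, has 10 exons, a longest intron of 1315 bases and a spliced transcript of 1571 bases. FMO1, on chromosome 1 from 6650476 to 6653195 on the minus strand, has 5 exons and a spliced transcript of 1915 bases. The authors' RPKM values (reads per kilobase of model, scaled to the library total) divide by lengths of 3032 bases for PAD4, 890 for NDR1, 3813 for ALD1 and 2549 for FMO1. These lengths are 1.34 times the spliced length for PAD4, 0.891 times for NDR1, 2.43 times for ALD1 and 1.33 times for FMO1, so the deposited RPKM is lowest relative to the transcript for ALD1. The ratio between the libraries does not depend on the length.

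**Figure D1:**
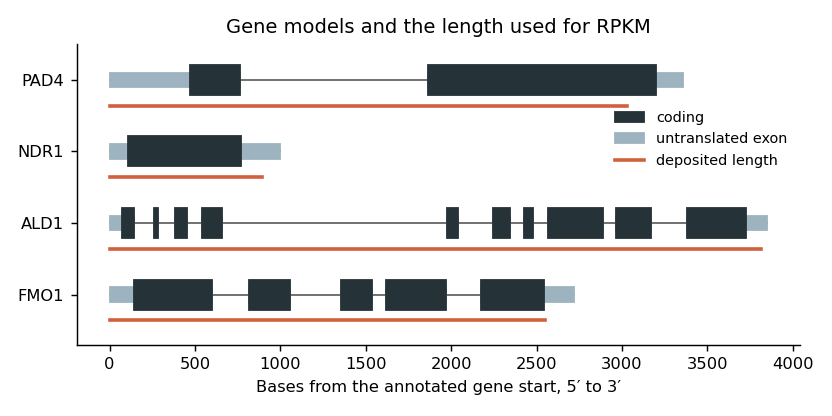
Gene models of the 4 genes drawn to scale from the annotated gene start in bases, with coding parts as tall dark boxes, untranslated exon parts as low pale boxes and introns as thin lines. The bar under each model shows how long the deposited length is, not where it lies; for ALD1 it is 3813 bases against a spliced transcript of 1571 bases.

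The 300 bases before each annotated gene start are shown because the genes were low together and the targeted gene encodes a DNA-binding protein. They are read 5′ to 3′ on the strand of the gene from TAIR10.1, and capitals mark GAAATTT on either strand, with overlapping matches joined. The windows are chr3:19430795-19431094 plus strand for PAD4, chr3:7194471-7194770 plus strand for NDR1, chr2:5768117-5768416 plus strand for ALD1 and chr1:6653196-6653495 minus strand for FMO1.
PAD4: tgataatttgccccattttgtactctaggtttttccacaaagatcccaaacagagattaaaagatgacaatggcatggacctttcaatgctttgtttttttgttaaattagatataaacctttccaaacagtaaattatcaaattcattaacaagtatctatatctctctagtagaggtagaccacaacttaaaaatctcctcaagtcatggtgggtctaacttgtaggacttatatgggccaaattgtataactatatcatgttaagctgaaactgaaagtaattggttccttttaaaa
NDR1: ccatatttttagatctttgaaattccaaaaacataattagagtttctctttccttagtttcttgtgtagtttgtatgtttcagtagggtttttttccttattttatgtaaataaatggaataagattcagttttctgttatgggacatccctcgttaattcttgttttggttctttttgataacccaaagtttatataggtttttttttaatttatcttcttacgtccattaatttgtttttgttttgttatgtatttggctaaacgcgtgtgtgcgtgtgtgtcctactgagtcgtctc
ALD1: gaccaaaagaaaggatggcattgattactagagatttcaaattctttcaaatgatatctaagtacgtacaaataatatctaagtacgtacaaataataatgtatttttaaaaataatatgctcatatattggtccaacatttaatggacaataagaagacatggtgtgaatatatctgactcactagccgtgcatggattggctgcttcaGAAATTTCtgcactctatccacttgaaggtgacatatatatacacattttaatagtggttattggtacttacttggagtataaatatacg
FMO1: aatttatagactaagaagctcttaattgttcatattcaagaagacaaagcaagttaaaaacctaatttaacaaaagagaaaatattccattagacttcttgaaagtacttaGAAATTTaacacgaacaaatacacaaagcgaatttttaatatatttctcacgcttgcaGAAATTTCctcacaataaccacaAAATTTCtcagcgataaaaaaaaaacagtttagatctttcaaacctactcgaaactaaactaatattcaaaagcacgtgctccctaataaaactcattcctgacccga

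The W-box core TTGAC was found 0 times in these 4 windows on either strand. Among the windows of 27443 protein-coding genes 50.4% held it, and among the 849 windows of lower loci 63.0% did. Letters absent from a window of this size say nothing about binding elsewhere, and in 1000 bases TTGAC was found in 2 places for PAD4 and in 1 place each for NDR1, ALD1 and FMO1, while 88.1% of all such windows held it. For FMO1 that place is the longer W-box TTGACC on the opposite strand, 304 to 299 bases before the start, so it straddles the edge of the printed window. For ALD1 it is the longer W-box TTGACT, also on the opposite strand, 736 to 731 bases before the start. TTGACC was held by 35.3% of all windows of 1000 bases and TTGACT by 50.6%. Among windows of lower loci these shares were 44.8% and 64.7%. The nearest TTGAC of PAD4 began 423 bases before the start, that of ALD1 735 bases and that of NDR1 874 bases. The core GAAATTT stood in 3 places before FMO1 and in 1 place before ALD1, and in 0 places before PAD4 and NDR1. Of all windows of 300 bases, 14.9% held it at least in 1 place and 0.117% in 3 or more, and of those of lower loci 16.1% and 0.236%. The share of 0.236% rests on few of the 849 lower windows, and FMO1 is itself among them. In FMO1 the places lay 189 to 183, 131 to 124 and 108 to 102 bases before the start, and in ALD1 90 to 83 bases before it. In 1000 bases NDR1 also held GAAATTT in 1 place and PAD4 in 0. Of all such windows 38.3% held it, and of those of lower loci 41.6%. The core TGACG, bound by TGA factors, was found in 0 places of the 4 printed windows and in 21.3% of all windows. In 1000 bases only ALD1 of the 4 genes held it, 435 to 431 bases before the start, while 54.1% of all such windows did. No binding was measured here, and the matches are a description of the sequence.

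**Figure D2:**
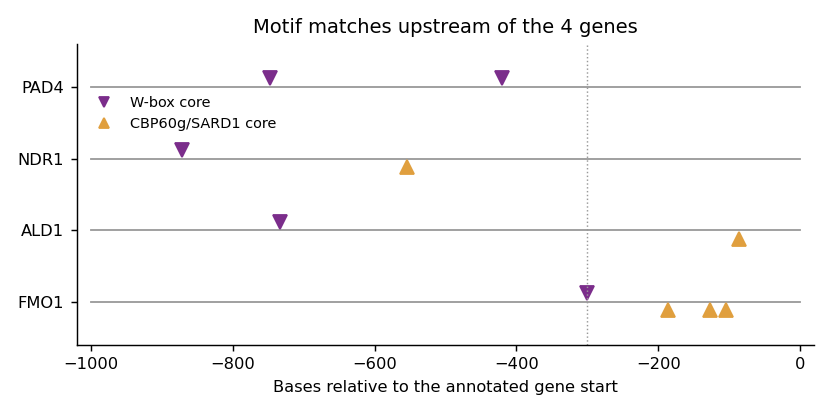
Places of the W-box core TTGAC (triangles pointing down) and of the core GAAATTT (triangles pointing up) in the 1000 bases before the annotated start of each gene, on either strand; the x axis is in bases relative to the start and the dotted line marks 300 bases. Within 300 bases only the edge of the FMO1 W-box at 304 to 299 bases is reached, while GAAATTT lies there in 3 places for FMO1 and 1 for ALD1.

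PAD4 carried the most reads of the 4 genes and the lowest ratio. Wild type gave 5026 reads and WRKY75 RNAi 1612 reads, or 40.1 and 14.0 RPKM as deposited. The WRKY75 RNAi library thus held 34.8% of the wild-type value, and the log2 ratio was -1.52 (interval -1.60 to -1.44). The counting intervals of its RPKM were 39.0 to 41.2 in wild type and 13.3 to 14.7 in WRKY75 RNAi. At this depth their separation follows from the choice of a gene listed as lower.

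For NDR1 2170 wild-type reads stood against 852 from WRKY75 RNAi, or 59.0 against 25.2 RPKM. Its value in WRKY75 RNAi was 42.7% of wild type, with a log2 ratio of -1.23 (interval -1.35 to -1.11). By the deposited RPKM it was the highest of the 4 genes in both libraries.

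ALD1, the entry enzyme of pipecolate synthesis, rested on the fewest reads, 1123 of wild type and 444 of WRKY75 RNAi. The RPKM was 7.13 and 3.06, so that 43.0% remained (log2 ratio -1.22, interval -1.38 to -1.06). FMO1, the enzyme that acts later in the same pathway, was covered by 2055 wild-type reads and 806 reads of the RNAi library. Its RPKM was 19.5 and 8.31, a remaining 42.6% (log2 ratio -1.23, interval -1.35 to -1.11). Wild type is the higher library for both enzymes, as the choice of genes listed as lower fixed in advance.

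Set against each other, the ratios of NDR1, ALD1 and FMO1 lay within the counting error of these libraries and that of PAD4 lay below them. All 6 pairs were compared by the exact conditional interval of the odds ratio of their reads. The log2 ratio of PAD4 was lower than that of NDR1 by a difference of -0.29 (interval -0.43 to -0.15), than that of FMO1 by -0.29 (interval -0.43 to -0.15) and than that of ALD1 by -0.30 (interval -0.48 to -0.12). Between ALD1 and FMO1 the difference was 0.012 (interval -0.19 to 0.21), between NDR1 and FMO1 0.0015 (interval -0.16 to 0.17) and between NDR1 and ALD1 -0.010 (interval -0.21 to 0.19). Differences of up to about these bounds among the latter 3 genes were not detectable at this depth. These intervals compare reads of 2 libraries and hold no spread between plants.

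Levels of the different genes were compared as RPKM computed on the spliced length. The authors' length for ALD1, 3813 bases, is close to its unspliced span of 3850 bases. Whether reads in introns were counted is not stated. The reads come from the authors' models and the spliced length from TAIR10.1, and the ends of the models can differ. NDR1, which has no intron, is 890 bases long in the former and 999 in the latter. PAD4 with its intron is 3032 bases long in the former and 3356 in the latter. On the spliced length PAD4 was at 53.9 (interval 52.4 to 55.4) and NDR1 at 52.6 (interval 50.4 to 54.8) in wild type. On this length these neighbours do not differ beyond counting error, which leaves out any error of the length itself. FMO1 followed at 26.0 (interval 24.9 to 27.1) and ALD1 at 17.3 (interval 16.3 to 18.3). In WRKY75 RNAi the order was NDR1 at 22.4 (interval 20.9 to 24.0), PAD4 at 18.8 (interval 17.9 to 19.7), FMO1 at 11.1 (interval 10.3 to 11.9) and ALD1 at 7.43 (interval 6.75 to 8.15). There PAD4 lay below NDR1 with intervals that do not overlap. The place of PAD4 and NDR1 in wild type depends on the length used, since the deposited RPKM puts NDR1 first at 59.0 against 40.1.

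**Figure D3:**
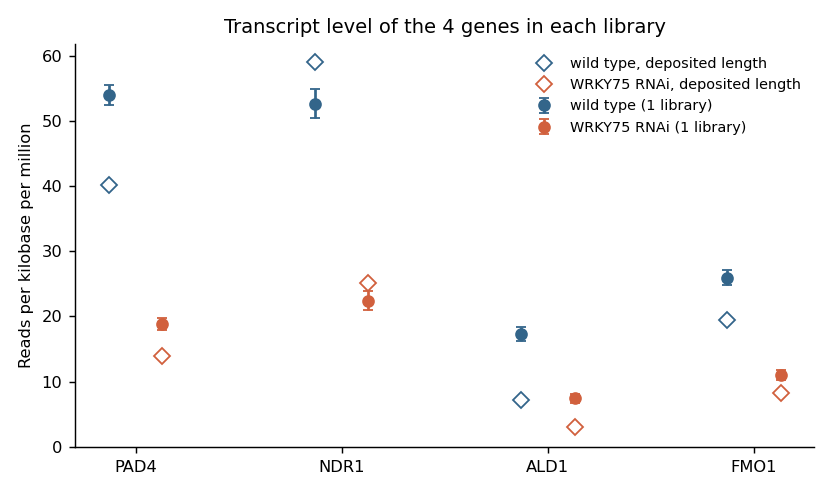
RPKM of the 4 genes in the wild-type and the WRKY75 RNAi library, with filled points on the spliced length and bars as exact 95% Poisson intervals (counting error only), and open diamonds on the deposited length. PAD4 and NDR1 are level in wild type on the spliced length, at 53.9 and 52.6, and all 4 genes are lower in WRKY75 RNAi.

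Among the 930 lower loci the 4 genes were well covered and moderate in ratio. The wild-type RPKM of NDR1 was above that of 88.1% of the lower loci, that of PAD4 above 84.0%, that of FMO1 above 76.7% and that of ALD1 above 64.2%. The median lower locus had 2.79 RPKM and 158 reads in wild type, while the 4 genes had a median of 2112.5 reads. In ratio, 50.4% of the lower loci lay below PAD4, and 73.1% to 74.8% lay below the other genes. These shares include loci without RNAi reads, since 852 of the 930 had reads in both libraries. Among the 630 lower loci with at least 1 RPKM in a library, 42.1% lay below PAD4. For the other genes that share was 68.9% to 71.1%. The median log2 ratio was -1.23 for the 4 genes and -1.53 for all lower loci. The lower locus nearest the authors' 2-fold limit, AT4G15660, was at -1.0, and the tables hold no value for transcripts that differed by less than 2-fold.

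**Figure D4:**
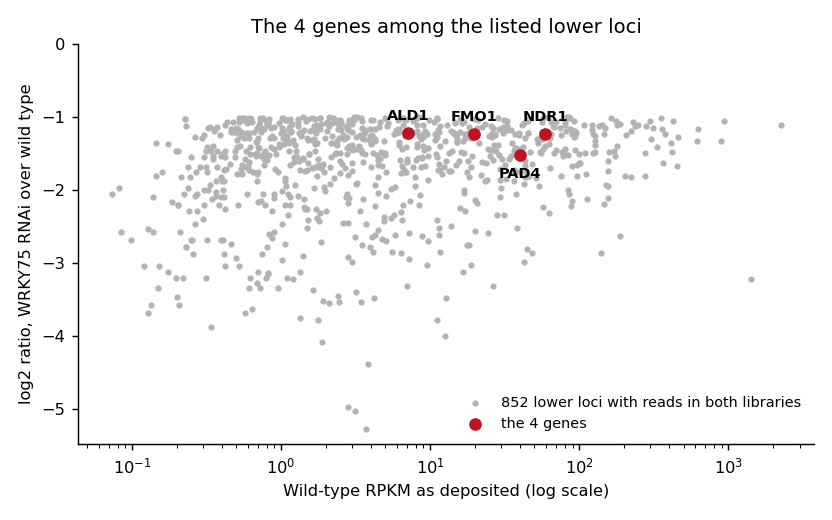
Wild-type RPKM as deposited (log scale) against the log2 ratio of WRKY75 RNAi over wild type for the 852 lower loci with reads in both libraries (grey) and the 4 genes (red). NDR1, ALD1 and FMO1 share a ratio near -1.23 at levels from 7.13 to 59.0 RPKM, and PAD4 lies below them at -1.52.

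The genes around each member in its pathway were read from 9 lists with 71 distinct genes, 67 of them besides the 4 genes. Of these 67, 9 were listed as lower (13.4%) and 3 as higher (4.48%), with a median log2 ratio of -1.16 for the 12 listed. Among all transcript models tested by the authors, 3.17% were listed as lower and 4.32% as higher. The lists were drawn up with earlier results of these data known, so their share is a description. The same holds for the counts of single lists below, to be read beside these 3.17% and 4.32%. A gene that is not listed has no value here and may have differed by less than 2-fold. The label of the authors' lower list also names a p-value limit. A gene with few reads may thus be absent although it differed by more.

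In the EDS1 family and its helper receptors, PAD4 was listed and the other 8 genes were not, among them its partners EDS1 and SAG101 and the helper receptor genes ADR1, ADR1-L1 and ADR1-L2. Of the 8 TIR-type receptor genes chosen for the lists, which signal through EDS1, 0 were listed. Outside these 8, AT5G41740, annotated as a TIR-NBS-LRR resistance protein, was lower with 11379 and 4391 reads (log2 ratio -1.25). Further genes of this class were not counted. Of 9 genes that modify PAD4-dependent immunity, ACD6 and BAP1 were lower. ACD6 (AT4G14400), an ankyrin-repeat membrane protein of a salicylic acid feedback loop, had 1954 and 780 reads (log2 ratio -1.21, interval -1.33 to -1.08), and its other listed models were at -1.30 and -1.29. BAP1 (AT3G61190), which restrains cell death with the copine BON1, was at -1.11 (interval -1.17 to -1.04).

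Around NDR1, the receptor gene RPS2 (AT4G26090), whose protein depends on NDR1, was listed as lower with 725 wild-type and 329 RNAi reads. Its log2 ratio was -1.02 (interval -1.21 to -0.83), so counting error alone reaches within 2-fold, and 2 genes annotated on the opposite strand overlap it, so their reads may be mixed with its own. RIN4, RPM1, PBS1 and RIPK were not listed. Of 6 NDR1/HIN1-like genes, which encode relatives of NDR1, NHL10 and NHL6 were lower. NHL10 (AT2G35980) had 1606 and 417 reads (44.0 and 12.4 RPKM, log2 ratio -1.83, interval -1.98 to -1.67), and NHL6 (AT1G65690) had 2298 and 765 reads (log2 ratio -1.47, interval -1.59 to -1.35). Both intervals lie below those of RPS2 and NDR1, that of NHL6 by a narrow margin.

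Of 6 genes of pipecolate and lysine metabolism, ALD1 and FMO1 were lower, 1 was higher and 3 were not listed. LKR/SDH (AT4G33150), the enzyme that opens lysine degradation through saccharopine and so draws on the same amino acid as ALD1, was higher in WRKY75 RNAi. Its model with most reads had 478 wild-type and 1632 RNAi reads, or 1.82 and 6.76 RPKM (log2 ratio 1.89, interval 1.74 to 2.04). The other 2 listed models of that locus were at 2.12 and 2.30. SARD4, which completes pipecolic acid, UGT76B1, which glucosylates N-hydroxypipecolic acid, and the ALD1 relative AGD2 were not listed. Among 6 flavin monooxygenases FMO1 was the lower member, and 2 glucosinolate S-oxygenases were higher. FMO-GSOX4 (AT1G62570) had 954 and 1850 reads (log2 ratio 1.08, interval 0.96 to 1.19) and FMO-GSOX2 (AT1G62540) 169 and 370 reads (log2 ratio 1.25, interval 0.98 to 1.52).

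Of 12 transcriptional regulators linked to ALD1, FMO1 or PAD4, 4 were lower and 0 higher, beside 3.17% and 4.32% of all models. CBP60G, with 9224 and 2422 reads, had a log2 ratio of -1.81 (interval -1.87 to -1.74), below that of each of the 4 genes. SARD1 had 3298 and 1190 reads (-1.35, interval -1.45 to -1.26), and WRKY33, which activates ALD1, had 27580 and 9015 reads (-1.49, interval -1.53 to -1.46). SARD1 overlaps 1 annotated gene and WRKY33 overlaps 2, and the strand setting of the counting is not known here, so part of their reads may belong to those genes. The salicylic acid receptor gene NPR3 was at -1.07 (interval -1.14 to -1.01). WRKY70, WRKY54, TGA1, TGA4, CBP60A, CAMTA3, NPR1 and NPR4 were not listed. Of 9 further genes of systemic acquired resistance, among them DIR1, AZI1 and MPK3, 0 were listed.

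**Figure D5:**
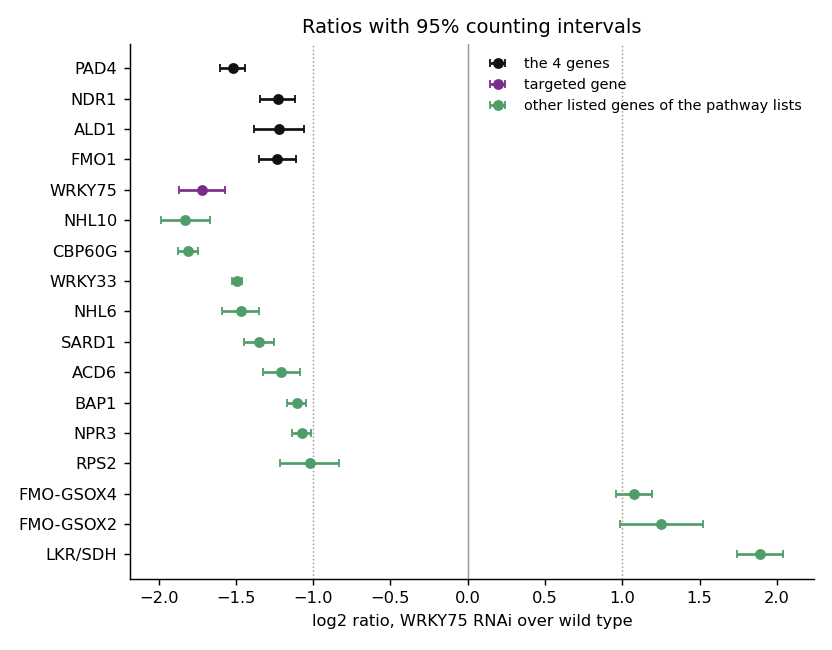
Log2 ratio of WRKY75 RNAi over wild type with exact 95% counting intervals for the 4 genes, the targeted gene WRKY75 and the 12 other listed genes of the pathway lists, with dotted lines at 2-fold. NDR1, ALD1 and FMO1 overlap each other, PAD4 lies below them, and LKR/SDH is the highest at 1.89.

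The lower genes come with 93 ontology terms in the authors' deposited table, and ALD1 stands apart from the other members there. In the authors' deposited table FMO1 stands under 35 terms, PAD4 under 28, NDR1 under 21 and ALD1 under 2, which are transferase activity and cofactor binding. PAD4, NDR1 and FMO1 share 13 terms of the authors' deposited table, defense response and innate immune response among them. Systemic acquired resistance, in the authors' deposited table, holds 5 of 857 list genes and 31 of 27594 background genes (adjusted p 0.0376), and those 5 are PAD4, FMO1, PR1, the salicylic acid synthesis gene ICS1 and TGA6. TGA6 (AT3G12250), a bZIP factor that partners NPR1, was at 86 and 34 reads (log2 ratio -1.22, interval -1.84 to -0.63), and ICS1 (AT1G74710, named EDS16 in the gene table) at 4024 and 1358 reads (-1.45, interval -1.54 to -1.36). The interval of TGA6, which rests on few reads and overlaps 2 other annotated genes, spans the ratios of all 4 members. PR1 (AT2G14610), a marker gene of this response, was lower at -3.23 (interval -3.27 to -3.18).

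The term for defense against bacteria in incompatible interactions, with 9 of 857 list genes and 27 of 27594 background genes in the authors' deposited table (adjusted p 4.7e-06), holds PAD4 and NDR1. These 2 terms were picked after their contents were seen, as small terms with a pair of the genes. The other 7 genes of the second term ranged in log2 ratio from -1.07 for NPR3 to -2.53 for the osmotin gene OSM34 (AT4G11650; 607 and 97 reads, interval -2.85 to -2.21). Between them stood CRK11 (AT4G23190), a cysteine-rich receptor-like kinase gene that overlaps 1 annotated gene, at -1.14 (interval -1.23 to -1.05), and PBS3 (AT5G13320), which acts on isochorismate, at -1.54 (interval -1.62 to -1.45). The interval of PBS3 overlaps that of PAD4, and PBS3 was covered by a similar number of reads, 5063 and 1607.

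For each gene the 2 listed loci nearest in the log2 RPKM of both libraries were looked up, a likeness that rests on 2 values each. For NDR1 they were AT5G41740, annotated as a TIR-NBS-LRR resistance protein (61.3 and 25.7 RPKM), and NAC036 (56.5 and 24.3 RPKM). For ALD1 they were MRU1 (AT5G35490; 7.15 and 3.13 RPKM) and the glycosyltransferase gene AT2G36770 (6.84 and 2.94 RPKM). For FMO1 they were the cytochrome P450 gene AT3G15760 (20.5 and 8.69 RPKM) and CRK37 (AT4G04500; 18.2 and 8.28 RPKM), and for PAD4 the methyltransferase gene AT3G54150 (40.2 and 14.8 RPKM) and AT5G03380 (37.5 and 13.9 RPKM), annotated for heavy metal transport.

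Neighbours on the chromosome were also looked up. Of the 24 genes within 3 places on either side, 1 was listed as lower and 0 as higher, beside 3.17% and 4.32% of all models. It was the syntaxin gene SYP122 (AT3G52400), which lies 3 places from PAD4. It had 22389 and 9175 reads (359.5 and 160.0 RPKM, log2 ratio -1.17, interval -1.20 to -1.13). In the TAIR10.1 annotation 0 genes overlap any of the 4 genes on either strand. The transcripts were also compared with all others by BLAST, and 0 genes shared a stretch of at least 50 bases at 97% identity or more with any of them. The closest relative of NDR1 is its neighbour AT3G20590, at 87.3% identity over 644 bases, and that of FMO1 is AT5G45180, at 83.9% over 623 bases. Neither is listed, and whether reads were exchanged between such relatives was not tested. ALD1 matched AGD2 at 66.5% identity over 1106 bases, and PAD4 had no match.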

How the data were processed

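RNA of 2 libraries was compared, 1 of wild type and 1 of WRKY75 RNAi, grouped by the genotype label. Reads were aligned with Bowtie to TAIR10, per the submitters' processing notes. No version, counter, strand setting or read filter is stated in the labels. The authors deposited read counts per transcript model, RPKM values, log2 ratios, and p-values with a false discovery rate, per the file headers, in 1 table of 998 lower and 1 of 1360 higher models, and, without a header, ontology terms with p-values. The number of models tested, 31475, was obtained from the deposited p-values, false discovery rates and ranks, as the number at which ranks were closest to whole (mean distance 0.00206 over 692 models, against 0.112 for the next best). The authors' p-values were used for nothing else.

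Library totals are the median over models of reads divided by RPKM and length. Ratios were recomputed from RPKM (largest difference from the deposited log2 ratio 7.3e-08), 1 model per locus with most reads being kept. The 1 row without a gene name, 0.103% of the wild-type and 0.0384% of the WRKY75 RNAi total, was left out. Intervals are Clopper-Pearson for ratios, Poisson for levels and conditional exact for pairs (Python 3.11.15, SciPy 1.17.1, checked on simulated data), and similarity used BLAST 2.17.0. Reads are not independent molecules, so the intervals cover counting error only. Gene models, spliced lengths and upstream windows come from TAIR10.1, a build other than the authors', used with its own coordinates only. Gene starts and ends may differ from those of the authors' models, on which the reads were counted. Protein sequences were not analysed here, and 1 gene of the lists is counted but not reported by name. The 4 genes and all lists were chosen with earlier results of these data known. Named are the 4 genes, WRKY75, every listed gene of the lists, the 2 nearest loci in RPKM and listed neighbours; genes of the ontology terms were chosen after their values were seen.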

Additional observations from a re-analysis of the deposited data

How the results depend on the processing

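Without scaling by library totals, which shifts every log2 ratio by -0.12, PAD4 was at -1.64, NDR1 at -1.35, FMO1 at -1.35 and ALD1, within its interval, at -1.34. Adding 1 RPKM moved ALD1 to -1.0 and kept the other 3 ratios and all 6 differences between pairs within their intervals. Adding 0.1 RPKM kept all 4 within theirs, and halving the reads widened the interval of ALD1 to -1.45 to -0.99. On the deposited length the levels in wild type and WRKY75 RNAi were 40.1 and 14.0 for PAD4, 59.0 and 25.2 for NDR1, 7.13 and 3.06 for ALD1 and 19.5 and 8.31 for FMO1, each outside the interval on the spliced length, because the divisor differs. An absolute log2 ratio of at least 1.5 left 483 of 930 lower and 647 of 1229 higher loci, and 2 lower and 1 higher of the 12 listed pathway genes. A minimum of 1 RPKM in a library left 743 higher loci and 630 lower ones. Windows of 1000 bases, chosen after seeing the data, raised the places of TTGAC to 2 for PAD4 and to 1 each for NDR1, ALD1 and FMO1, and those of GAAATTT to 1 for NDR1. None of the 4 loci has another listed model, so that alternative gave no value. No paired analysis was possible because each genotype has 1 library.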
